A study of Arabidopsis thaliana with 6 samples.

Results

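The autonomous flowering pathway genes described here are 8 Arabidopsis thaliana loci, FLK (AT3G04610), FCA (AT4G16280), FY (AT5G13480), FPA (AT2G43410), FVE (AT2G19520), FLD (AT3G10390), LD (AT4G02560) and REF6 (AT3G48430). They were taken by locus from a gene table of 33602 genes, together with their intron bins, exon bins and splice junctions. RNA was sequenced from whole plants of the Col-0 accession, in 3 libraries of a prmt5 mutant and 3 libraries of wild type. Harvest was at 15 days, after 4 days of stratification and growth on agarose medium under constant white light at 22 °C. The labels name no allele of the mutant and do not say whether the 3 libraries of a group came from separate plantings, so p-values measure the spread between these libraries, which may be technical.

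The autonomous pathway promotes flowering by keeping the floral repressor FLC low, whatever the day length, and its mutants flower late until a cold period silences FLC. Its members fall into a group that acts on RNA and a group that acts on chromatin. FCA, FPA and FLK are RNA-binding proteins and FY is a subunit of the cleavage and polyadenylation machinery. FVE, FLD, LD and REF6 are nuclear proteins linked to histone modification. PRMT5 is a protein arginine methyltransferase that acts on spliceosomal Sm proteins, its loss delays flowering, and FLK is a known splicing target of it.

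The sequences that the results below turn on are the 5′ splice sites (donors) of the 4 introns that held more reads in the mutant, together with that of FLK intron 2 for contrast. Each is written 5′ to 3′ on the transcribed minus strand, with 10 exonic bases followed by 15 intronic bases, and capitals mark the 3 exonic and 6 intronic bases that enter the donor score below. They were read from the RefSeq TAIR10.1 assembly.
FLK intron 1 donor, chr3:1254754-1254778: ctgatacCACGTAATTtcactgggt
FLK intron 2 donor, chr3:1253559-1253583: agaaagaGCTGTGAGTctctaaatc
FCA last intron donor, chr4:9207148-9207172: aaagcttGAGGTTCATatctaccct
FCA long intron donor, chr4:9213572-9213596: cagcagcAAGGTATGTcaatctcca
FY first intron donor, chr5:4331613-4331637: tcgtttcAAGGTAACCtaaattcga
A donor score sums the log2 ratio of each base's frequency in annotated introns to 0.25, so a higher score means a donor closer to the common pattern. The median over 109083 annotated introns was 7.16. The donor of FLK intron 1 scored 6.05, above 30.9% of these introns, that of FLK intron 2 scored 3.07, above 4.56%, and that of the last FCA intron scored 5.82, above 27.8%. The donors of the FY first intron, at 7.87, and of the long FCA intron, at 11.05 and above 99.0% of introns, were stronger than the median. The donors of these 4 introns with more reads in the mutant thus lay on both sides of the median. Those above it belong to introns whose difference depended on the denominator, as given below. The last FCA intron, with a donor below the median, also lost its call with library size as the denominator.

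Gene counts summed to between 33099525 and 40150358 in mutant libraries and between 29145068 and 59480457 in wild type libraries. PRMT5 itself had 55.8, 59.2 and 53.6 counts scaled to TMM-adjusted library size (CPM) in mutant libraries, against 35.3, 29.5 and 30.9 CPM in wild type, so its level does not mark the lesion. However, 1 of its introns, chosen after its values were seen, held 196, 301 and 206 reads in the mutant and 15, 5 and 8 in wild type, which separates the groups as labelled. Libraries also differed in how evenly reads lay along genes. With each gene cut into 3 equal parts, the log2 of exonic density in the 3′ part over that in the 5′ part had a median over genes (the coverage ratio below) of 0.74, 0.82 and 1.3 in mutant replicates 1, 2 and 3, against 1.65, 1.23 and 1.3 in wild type replicates 1, 2 and 3. Of marker genes fixed for 4 organs, 3 of 4 leaf genes and 2 of 3 tested flower genes were lower in the mutant, and 0 of 5 root and 0 of 2 tested shoot meristem genes differed. Summed leaf markers were at 26500 to 31200 CPM in the mutant and 38300 to 46600 CPM in wild type. Summed flower markers were at 1.5 to 2.68 CPM in the mutant and 4.74 to 6.04 CPM in wild type. The tested flower gene not called, SEP3, stood at log2 0.93 ± 0.46 (SE, edgeR adjusted p = 0.133). CLV3, WUS and CAL had a count of 0 in all 3 mutant libraries, but their wild type counts were also few, at 2, 2 and 0, at 2, 0 and 2, and at 0, 4 and 8. In whole plants, fewer cells of a type and less RNA per cell cannot be told apart, and the part of organ composition in the results below was not tested.

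The first comparison asked which of the 8 genes differed in level between mutant and wild type. FLK was higher in the mutant by 2.76-fold, FCA was slightly higher and LD slightly lower, and the other 5 genes were not called. These 3 calls among 8 genes stand beside 34.5% of all 21949 genes tested, 18.6% being higher and 15.9% lower in the mutant. The median log2 change of the 8 genes was 0.20, against -0.02 over all genes tested.

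FLK, an RNA-binding protein with KH domains that lowers FLC transcript, had 153, 156 and 144 CPM in mutant libraries, against 61.0, 53.6 and 49.3 CPM in wild type libraries. Every mutant library was above every wild type library by more than the spread within either group. The log2 change was 1.46 ± 0.11 (SE; edgeR quasi-likelihood test, Benjamini-Hochberg adjusted p = 2.7e-06), and it lay between 1.40 and 1.55 when any 1 library was left out.

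FCA, an RNA-binding protein that acts with the polyadenylation machinery, had 44.8, 45.2 and 45.5 CPM in the mutant and 38.6, 37.0 and 36.6 CPM in wild type, which is log2 0.27 ± 0.08 for mutant over wild type (SE; edgeR adjusted p = 0.028). LD, a homeodomain protein, had 28.8, 30.6 and 27.6 CPM in the mutant and 34.3, 34.9 and 34.5 CPM in wild type, which is log2 -0.26 ± 0.09 (SE; edgeR adjusted p = 0.0414). The groups did not overlap for either gene, but the differences are small. Leaving out any 1 library other than wild type replicate 1 raised the adjusted p of FCA to between 0.056 and 0.116 and that of LD to between 0.0624 and 0.12.

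FY averaged 25.4 ± 2.48 CPM in the mutant and 21.1 ± 1.28 CPM in wild type (SD, n = 3 each; log2 0.27 ± 0.11 SE, edgeR adjusted p = 0.0664). FLD and REF6 both stood at log2 0.20 ± 0.11 (SE; adjusted p by edgeR = 0.173 and 0.184). FPA at -0.02 ± 0.10 and FVE at -0.05 ± 0.10 had the smallest differences, with edgeR adjusted p of 0.923 and 0.749.

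**Figure D1:**
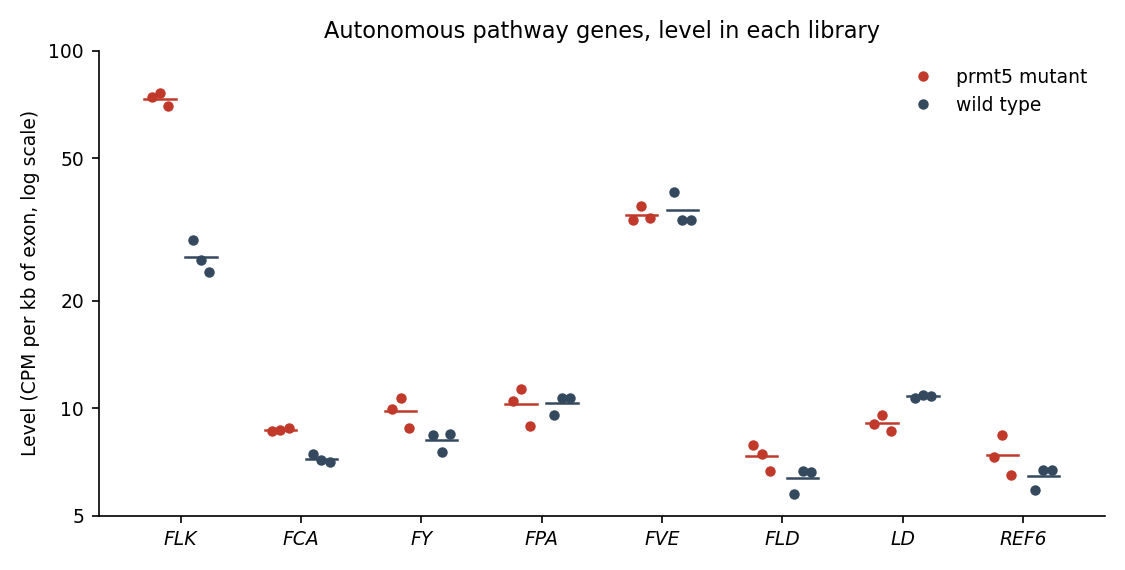
Level of each gene in each library, in CPM per kilobase of the deposited gene length on a log scale, with prmt5 mutant libraries in red on the left and wild type libraries in dark blue on the right of each gene; horizontal bars are group means. FLK lies between 70.0 and 76.0 in the mutant and between 24.0 and 29.6 in wild type, while the groups of the other genes lie close together or overlap.

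Levels can be compared between genes per kilobase. In the mutant FLK led with a mean of 73.4 CPM per kb, followed by FVE at 34.7, and the other 6 genes lay between 7.33 (FLD) and 10.2 (FPA). In wild type FVE was first at 35.8 ± 3.83 and FLK second at 26.5 ± 2.88 CPM per kb (SD, n = 3 each), and the others lay between 6.35 (FLD) and 10.8 (LD). Between FLD and REF6, the lowest neighbours in that order, the libraries overlapped in both genotypes. The order of FLK and FVE was opposite in the genotypes, with FLK above FVE in all 3 mutant libraries and below it in all 3 wild type libraries. The deposited lengths count annotated retained introns as exon, which touches FCA most. With the same gene counts over the length of its exon bins alone, FCA was at 14.5 ± 0.102 in the mutant and 12.0 ± 0.333 CPM per kb in wild type (SD, n = 3 each). Whether reads of retained introns enter gene counts is not given, so these values may be too high.

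The second comparison asked whether introns of these genes held more reads relative to their gene. The tables list 90 introns of the 8 genes, 20 had enough reads to be tested, and 4 were called, all higher in the mutant. Over all 34408 introns tested 27.9% were called, 26.7% higher in the mutant, so the share among the members (4 of 20) was not above the background. Of the 20, 16 had a positive change, and their median log2 change was 0.44, against 0.46 over all introns tested, of which 76.3% were positive. No tested intron lacked a wild type library with 10 reads. Some, the last FCA intron among them, had 10 reads in all 3 mutant libraries but not in all 3 wild type libraries. For these the mutant libraries sufficed to reach the read minimum. With a minimum of 20 reads instead, 6 of 14 tested member introns were called, beside 37.5% of all introns.

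FLK intron 1 was the most changed intron of the 8 genes. It is 486 bases long (chr3:1254283-1254768) and lies in the 5′ UTR just upstream of the start codon, and of the 4 RefSeq transcripts of FLK 2 splice it and 2 keep it. It held 783, 945 and 603 reads in mutant libraries, against 73, 152 and 76 in wild type libraries. Relative to the gene this was 13.9 ± 1.51 reads per 100 gene reads in the mutant and 4.52 ± 1.3 in wild type (SD, n = 3 each). With the gene as the denominator the log2 difference was 1.64 ± 0.18 (SE; edgeR adjusted p = 3.94e-08), and every alternative tried kept it called, between 1.23 and 2.73.

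Reads spliced over FLK intron 1 differed less than the level of the gene. They numbered 54, 59 and 44 in the mutant and 40, 72 and 27 in wild type, or 1.43 ± 0.146 CPM in the mutant and 1.08 ± 0.164 CPM in wild type (SD, n = 3 each). On this scale the mutant libraries, at 1.57, 1.43 and 1.28 CPM, lay above wild type, at 1.02, 1.27 and 0.963 CPM (exact permutation p = 0.1). In the junction table, scaled to its own TMM-adjusted totals, the log2 difference was 0.15 ± 0.28 (SE; adjusted p by edgeR = 0.759), so the scalings differ in size and neither passes a threshold. The mutant libraries had 14.5, 16 and 13.7 intron reads for each spliced read, against 1.82, 2.11 and 2.81 in wild type. Read density in the intron was 68.1%, 68.9% and 62.6% of that in the flanking exon bins in the mutant and 22.1%, 29.7% and 34.0% in wild type. By both measures every mutant library stood above every wild type library.

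**Figure D2:**
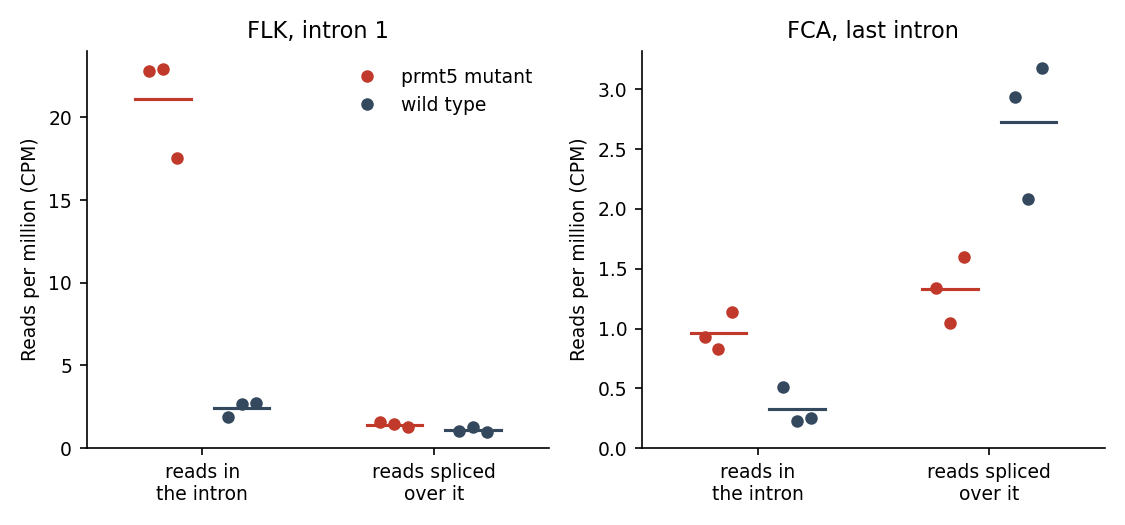
Reads inside an intron and reads spliced over it, in CPM on linear axes from 0, for FLK intron 1 and the last FCA intron, with prmt5 mutant libraries in red on the left and wild type libraries in dark blue on the right; bars are group means. Reads in FLK intron 1 average 21.1 CPM in the mutant and 2.42 CPM in wild type while the spliced reads average 1.43 CPM in the mutant and 1.08 CPM in wild type, and in FCA the intron reads are higher and the spliced reads lower in the mutant.

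The other 5 annotated FLK junctions were all higher in the mutant when tested against library size, where 18.2% of 94131 junctions were called, with 9.75% higher in the mutant and 8.46% lower. Of 85 annotated member junctions tested in this way, 8 were called, these 5 higher and 3 of FCA and FPA lower. The 5 FLK junctions had log2 changes of 1.67 ± 0.21 at intron 2 and 1.45 ± 0.20 at intron 3, then 1.28 ± 0.18, 1.03 ± 0.18 and 0.84 ± 0.20 towards the 3′ end (SE; adjusted p by edgeR between 4.39e-07 and 0.00296); the last of them missed the threshold without wild type replicate 3 (edgeR adjusted p = 0.0505). Reads spliced over intron 1 were 24.1, 20 and 16.6 per 100 reads spliced over intron 2 in the mutant, against 48.8, 65.5 and 57.4 in wild type (two-sided exact permutation p = 0.1, the smallest that 3 against 3 libraries allow). Intron 1 was the exception among the 6 annotated FLK junctions tested.

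FLK intron 2, 1170 bases inside the coding sequence with the weak donor shown above, held 214, 291 and 220 reads in the mutant and 66, 111 and 38 in wild type, and its change relative to the gene was 0.49 ± 0.19 (SE; edgeR adjusted p = 0.056). It fell just outside the threshold. A minimum of 20 reads brought a call (0.49, adjusted p by edgeR = 0.0439), and dropping wild type replicate 2 did so too (0.66, 0.0312). Library size as the denominator, which also holds the change of the whole gene, gave a call as well (1.33, 4.99e-05). No other alternative run called it, with 0.11 (0.687) against the neighbouring exon bins and 0.09 (0.834) against spliced reads. This intron spans an unannotated exon, described below, that was spliced in in every library. Reads of that exon may be among the intron reads, and their part was not tested. Its spliced reads, at 224, 295 and 265 in the mutant and 82, 110 and 47 in wild type, were close in number to its intron reads in each library, and its density relative to the flanking exon bins was 6.66%, 7.37% and 7.38% in the mutant and 6.51%, 7.34% and 5.71% in wild type, which overlap. FLK intron 3, at -0.50 ± 0.33, and the last FLK intron, at -0.10 ± 0.43, were not called (edgeR adjusted p = 0.289 and 0.898). Intron 1 was thus the one FLK intron called in the main test.

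A pair of junctions not in the annotation joins FLK intron 2 to an exon inside it. The exon spans 178 bases (chr3:1252841-1253018), is preceded by AG and followed by GT on the minus strand, and has a donor score of 7.59. It is shown because its inclusion would put an in-frame stop codon, in capitals at base 37, into the FLK reading frame.
FLK unannotated exon, chr3:1252841-1253018: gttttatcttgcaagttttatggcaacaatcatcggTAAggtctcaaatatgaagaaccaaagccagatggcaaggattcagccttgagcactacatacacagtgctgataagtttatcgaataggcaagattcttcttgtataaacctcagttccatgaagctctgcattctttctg
The upstream junction had 47, 71 and 29 reads in the mutant and 12, 20 and 3 in wild type. The downstream junction had 48, 83 and 72 reads in the mutant and 13, 34 and 12 in wild type. The exon was therefore used in every library of both genotypes. As a share of splicing across intron 2, with the mean of both junctions as inclusion, it made up 17.5%, 20.7% and 16% in the mutant and 13.2%, 19.7% and 13.8% in wild type, or 18.1 ± 2.4% in the mutant and 15.6 ± 3.6% in wild type (SD, n = 3 each; exact permutation p = 0.3). These ranges overlap. These 2 junctions and the one that skips the exon were the only member junctions with enough reads to be tested within a cluster, and 0 of 3 were called by diffSpliceDGE of edgeR (5.08% of 5020 over the whole table), with 0 at an unadjusted p under 0.05. The remaining isoform difference in RefSeq, a 72-base stretch of the first coding exon that 2 transcripts splice out, had 2, 0 and 0 reads in the mutant and 2, 2 and 0 in wild type.

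**Figure D3:**
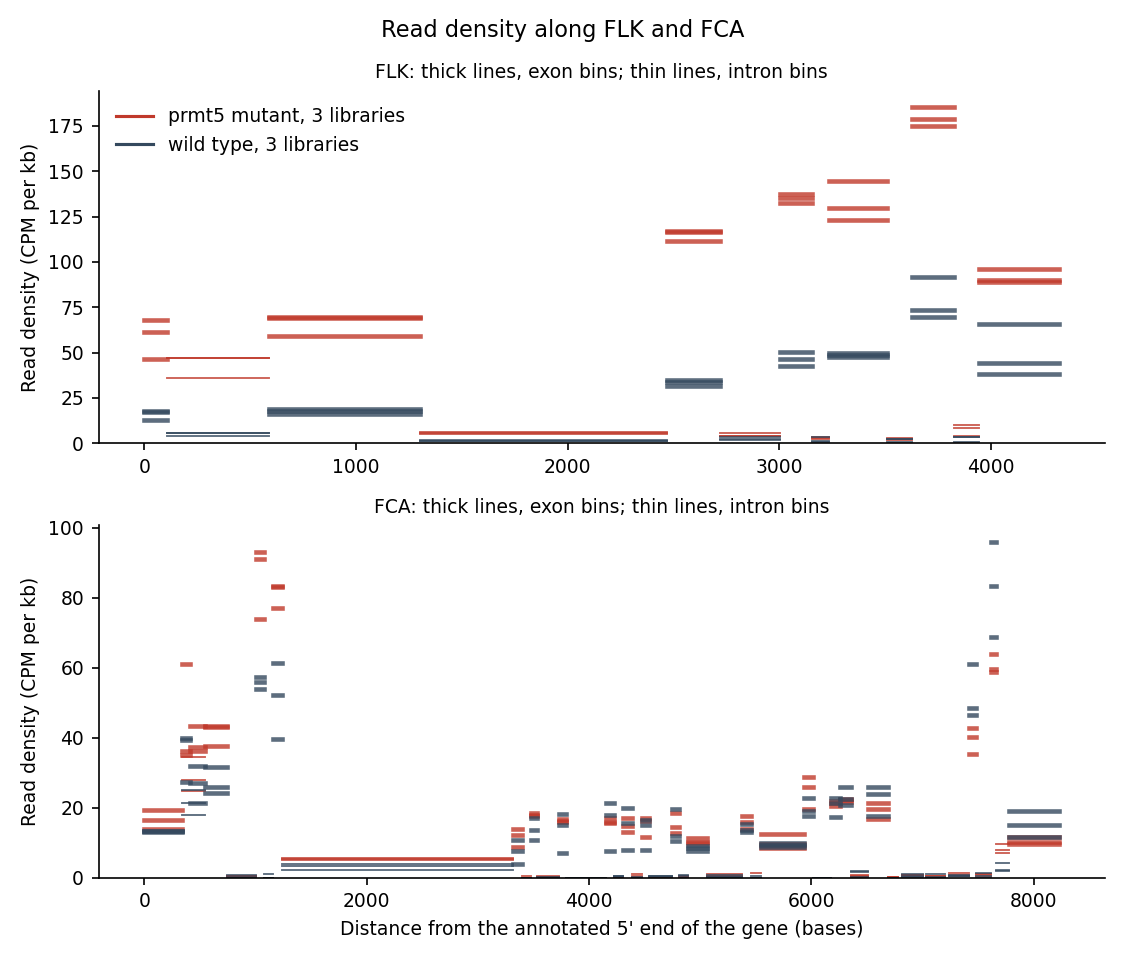
Read density in CPM per kilobase along FLK (top) and FCA (bottom) against the distance from the annotated 5′ end in bases, with 1 line for each bin and library, exon bins thick and intron bins thin, prmt5 mutant in red and wild type in dark blue; bins under 40 bases are not drawn. In FLK the mutant lines lie above wild type in every exon bin and in intron 1; in FCA the mutant lines lie below wild type in the last bins.

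Along FLK the difference was larger towards the 5′ end. Density in the exon between introns 1 and 2 was 76.5%, 78.2% and 61.6% of that in the last exon bin in mutant libraries, against 27.2%, 42.3% and 42.4% in wild type (exact permutation p = 0.1). The coverage ratio along genes was 1.3 in mutant replicate 3, at 61.6%, and in wild type replicate 3, at 42.4%, and its part in this difference was not tested. With the coverage ratio of each library as a covariate, FLK kept its gene change (log2 1.51, edgeR adjusted p = 0.000182) and its intron 1 change (1.27, edgeR adjusted p = 2.66e-05).

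FCA differed in its last intron. This intron, 117 bases (chr4:9207046-9207162) in the 3′ UTR directly after the stop codon, is used by 1 of 4 RefSeq transcripts in this exact form, and by 1 more with 1 base added. It held 32, 34 and 39 reads in the mutant and 20, 13 and 7 in wild type, or log2 1.28 ± 0.38 with the gene as the denominator (SE; adjusted p by edgeR = 0.0118). Reads spliced over it moved the other way, with 46, 43 and 55 in the mutant and 115, 118 and 89 in wild type, or log2 -1.26 against library size, with an SE of 0.26 (edgeR adjusted p = 0.000724). Density in the intron was 53.7%, 52.1% and 57.5% of that in the flanking exon bins in the mutant, against 16.6%, 11.6% and 9.51% in wild type. Neither the intron reads nor the spliced reads of the groups overlapped. The intron call was lost without mutant replicate 3 (log2 1.15, edgeR adjusted p = 0.0603) or wild type replicate 2 (1.03, 0.0779) and with library size as the denominator (0.91, 0.0979), and the spliced-read call with the coverage covariate (-0.76, 0.177), while the intron call was kept with it (1.83, 0.0155).

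The neighbouring junction upstream was also lower in the mutant, with 66, 80 and 60 reads against 89, 125 and 89 in wild type (log2 -0.66 ± 0.23 SE, edgeR adjusted p = 0.045), a call kept among the left-out libraries only without wild type replicate 2. The junctions just before the long FCA intron were not called. Read density in the exon bins after the long intron was 47.8%, 44.5% and 54.3% of that in the bins before it in mutant libraries, against 75.5%, 79.6% and 79.9% in wild type (exact permutation p = 0.1). Mutant replicate 3 and wild type replicate 3, with the same coverage ratio of 1.3, stood at 54.3% and 79.9%. The part of read coverage along genes in this difference was not tested.

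The long FCA intron is the site where early polyadenylation, which FCA protein itself promotes, gives a short transcript. It spans 2075 bases (chr4:9211512-9213586), and 3 of 4 RefSeq transcripts splice it. It held 364, 484 and 382 reads in the mutant and 326, 400 and 138 in wild type, or 24.7 ± 1.2 reads per 100 gene reads in the mutant and 18 ± 4.16 in wild type (SD, n = 3 each). Its change relative to the gene, 0.44 ± 0.17 (SE; edgeR adjusted p = 0.0461), was close to the threshold and was 0.07 (edgeR adjusted p = 0.742) when the neighbouring exon bins replaced the gene as the denominator. Leaving out any 1 library other than wild type replicate 1 also ended the call (edgeR adjusted p between 0.0714 and 0.264). Density in it as a share of the exon bins upstream was 13.2%, 14.2% and 14.1% in the mutant and 15.4%, 12.9% and 8.4% in wild type (exact permutation p = 0.6), ranges that overlap. Reads spliced over it were few, at 15, 13 and 7 in the mutant and 8, 24 and 7 in wild type.

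Among the other FCA isoforms, the 204-base intron near the 5′ end that 1 RefSeq transcript splices held 195, 291 and 173 reads in the mutant and 144, 247 and 144 in wild type (log2 0.17 ± 0.18 SE, edgeR adjusted p = 0.564). It was mostly kept in both genotypes, with 8, 5 and 2 spliced reads in the mutant and 4, 3 and 6 in wild type. A 322-base alternative to an internal 165-base intron had 0, 3 and 2 reads in the mutant and 2, 1 and 2 in wild type, against 33, 46 and 46 in the mutant and 39, 57 and 18 in wild type for the 165-base form. Neither choice separated the genotypes.

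FY, the WD-repeat polyadenylation factor that binds FCA, had 1 called intron. Its first intron, 96 bases in the 5′ UTR (chr5:4331532-4331627), held 54, 46 and 35 reads in the mutant and 19, 31 and 17 in wild type, or log2 0.90 ± 0.32 with the gene as the denominator (SE; edgeR adjusted p = 0.0339). All mutant libraries were above all wild type libraries. The intron is annotated as kept in 1 of 4 transcripts, and it had 0, 2 and 0 spliced reads in the mutant and 0, 4 and 5 in wild type. Only leaving out mutant replicate 2 kept this call among the 6 left-out libraries, and against the neighbouring exon bins the change was 0.22 (edgeR adjusted p = 0.658).

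A coding FY intron of 477 bases with a strong donor, above 84.5% of introns, held 37, 63 and 40 reads in the mutant and 12, 49 and 10 in wild type (log2 0.91 ± 0.36 SE, edgeR adjusted p = 0.0552), which overlap through wild type replicate 2. This intron was called without that library (1.70, edgeR adjusted p = 0.00202), with the neighbouring exon bins as the denominator (1.09, 0.0182), with spliced reads as the denominator (1.23, 0.0429) and with a minimum of 20 reads (0.91, 0.048). The other tested FY introns had log2 changes between -0.04 and 0.81 and were not called. FY isoforms differ at the acceptor of the last intron by 3 bases. The 249-base form had 54, 157 and 112 reads in the mutant and 163, 154 and 69 in wild type, and the 252-base form had 9, 9 and 7 in the mutant and 9, 6 and 3 in wild type. The 252-base form made up 14.3%, 5.42% and 5.88% of reads over either form in the mutant and 5.23%, 3.75% and 4.17% in wild type, shares that rest on few reads and do not overlap (exact permutation p = 0.1).

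FPA, an RNA-binding protein that controls where transcripts are cleaved and polyadenylated, its own included, had 4 tested intron bins and none called. Of these, 1 bin of 699 bases is spliced out in that form by no RefSeq transcript and is part of a 798-base intron described below. The first FPA intron, 1371 bases long, held 41, 82 and 54 reads in the mutant and 72, 71 and 46 in wild type (log2 0.03 ± 0.26 SE, edgeR adjusted p = 0.948). The smallest p belonged to an intron of 129 bases that 4 of 6 RefSeq transcripts keep, with 57, 74 and 49 reads in the mutant and 42, 85 and 28 in wild type (0.44 ± 0.25, edgeR adjusted p = 0.216). The groups overlapped at the first, while per 100 gene reads the 129-base intron held 4.16, 4.15 and 4.19 in the mutant and 2.93, 3.68 and 2.44 in wild type, which do not overlap.

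The isoform difference of FPA lay at its 3′ end. A 798-base intron in the 3′ UTR, spliced in 2 of 6 RefSeq transcripts, had 40, 54 and 76 spliced reads in the mutant and 117, 153 and 92 in wild type, or log2 -1.15 ± 0.26 against library size (SE; edgeR adjusted p = 0.00159). Per 100 gene reads these were 2.92, 3.03 and 6.5 in the mutant and 8.16, 6.62 and 8.03 in wild type (exact permutation p = 0.1). Mutant replicate 3, with the high coverage ratio, was close to the wild type libraries, and with the coverage covariate the change was -0.57 (edgeR adjusted p = 0.281). Reads inside the 798-base intron did not differ in the same way. Its tested bin of 699 bases held 6.64, 6.29 and 8.47 reads per 100 gene reads in the mutant and 6.98, 6.71 and 6.72 in wild type. The log2 change of that bin relative to the gene was 0.06 ± 0.20 (SE, edgeR adjusted p = 0.868). FPA overlaps a protein-coding gene and a long noncoding RNA on the opposite strand in this stretch, and the sources used here do not say whether reads were counted by strand, so these values are uncertain.

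**Figure D4:**
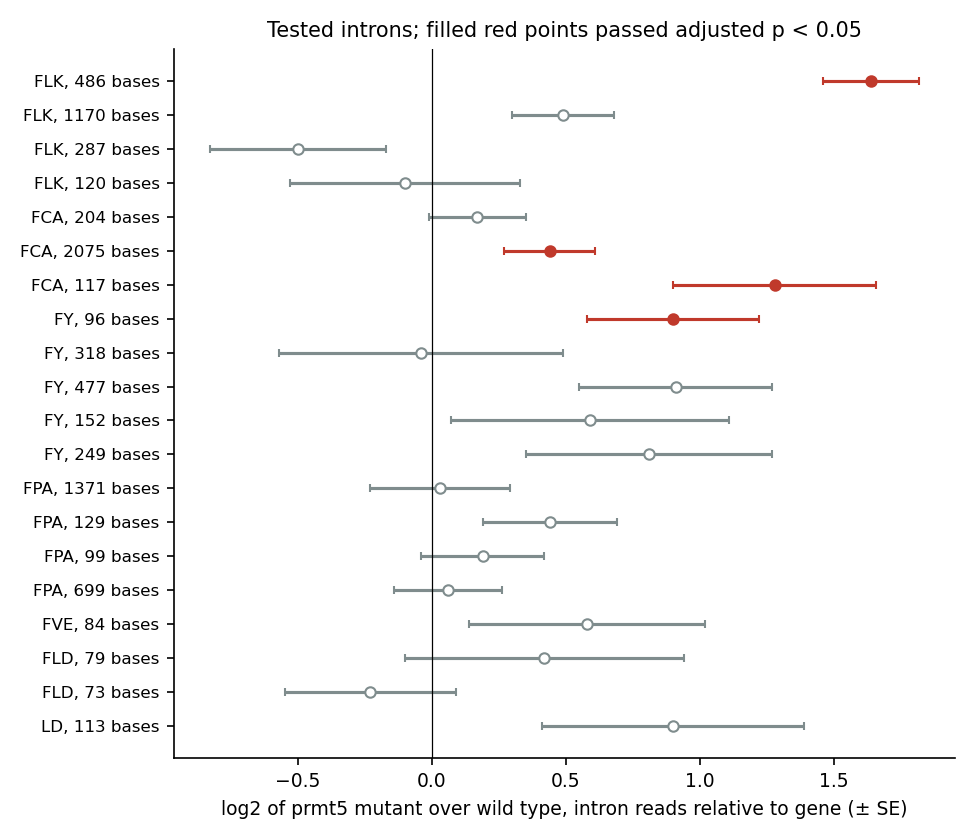
Log2 change of reads in each of the 20 tested introns relative to reads of its gene, prmt5 mutant over wild type, with standard errors; introns are named by gene and length and ordered 5′ to 3′ within a gene. Filled red points are the 4 called introns, from 0.44 in FCA to 1.64 in FLK, and 16 of the 20 points lie above 0.

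The 4 chromatin members had few intron reads and no called intron. FVE, a WD-repeat protein found with histone deacetylases, has 1 RefSeq transcript, and its only tested intron held 28, 18 and 16 reads in the mutant and 11, 33 and 7 in wild type (log2 0.58 ± 0.44 SE, edgeR adjusted p = 0.372). It was well spliced, with 197, 289 and 311 spliced reads in the mutant and 315, 475 and 204 in wild type. FVE was thus unresolved in its introns as in its level.

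FLD, related to the histone demethylase LSD1, had 2 tested introns, both near the 3′ end. The smallest p was in the 79-base intron, with 18, 16 and 9 reads in the mutant and 10, 21 and 2 in wild type (log2 0.42 ± 0.52 SE, edgeR adjusted p = 0.604). The last intron, 73 bases and kept in 1 of 4 RefSeq transcripts, held 26, 50 and 41 reads in the mutant and 58, 53 and 22 in wild type, with 36, 33 and 40 spliced reads in the mutant and 48, 80 and 35 in wild type. It was partly kept in both genotypes, and its change of -0.23 ± 0.32 was not called (edgeR adjusted p = 0.651).

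LD had 1 tested intron, 113 bases in the 5′ UTR and the only difference between its 2 RefSeq transcripts. It held 18, 23 and 8 reads in the mutant and 6, 23 and 7 in wild type (log2 0.90 ± 0.49 SE, edgeR adjusted p = 0.182). Spliced reads were 0, 0 and 2 in the mutant and 0, 0 and 1 in wild type, so this intron was read mostly in its kept form. REF6, a histone H3 lysine demethylase of the Jumonji class, had no intron with enough reads to test, and its 7 introns together held 9, 15 and 11 reads in the mutant and 0, 8 and 6 in wild type. Its 2 RefSeq transcripts differ at the 5′ end, where 1 splices 3 introns; the first of these had 24, 27 and 17 spliced reads in the mutant and 8, 31 and 7 in wild type, which overlap.

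Of the 13 tested introns in coding sequence, 11 lie in the transcript used to number introns, and each of these 11 would bring an in-frame stop codon if kept. The first stop in FLK intron 2 was a TAA at intron base 10, and that in the long FCA intron a TGA at intron base 297. The called intron of FLK lies in the 5′ UTR of every RefSeq transcript that splices it and the last FCA intron in the 3′ UTR. The called FY intron lies in the 5′ UTR of the 3 transcripts that splice it, and the transcript that keeps it has its annotated start codon inside it.

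Intron reads summed over each gene were compared because many introns of these genes hold few reads. FLK had 20.6, 20.9 and 18.6 intron reads per 100 gene reads in the mutant, against 8.23, 10.9 and 11.0 in wild type. FCA had 40.8, 46.0 and 40.8 in the mutant and 34.8, 33.6 and 31.8 in wild type. FY had 20, 17.2 and 16.1 in the mutant and 9.03, 11.4 and 9.95 in wild type. These 3 RNA-processing genes were higher in every mutant library than in any wild type library.

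Among the chromatin members, LD had 4.25, 5.08 and 5.27 intron reads per 100 gene reads in the mutant and 2.6, 3.29 and 2.48 in wild type, and REF6 had 0.823, 0.987 and 1.13 in the mutant and 0, 0.482 and 0.727 in wild type. Together 5 of 8 genes had groups that did not overlap, all higher in the mutant (exact permutation p = 0.1 each), beside 45.3% of 17342 genes over the whole table, with 43.6% of the 17342 higher in the mutant and 1.63% lower. The ratio of mutant to wild type means was 2.43 for REF6, which has few reads, 2.0 for FLK, 1.75 for FY, 1.74 for LD and 1.27 for FCA. FPA (1.12), FVE (1.37) and FLD (1.0) overlapped, with exact permutation p of 0.4, 0.4 and 1.0. FLK intron 1 supplied 13.9 of the 20.1 FLK intron reads per 100 gene reads in the mutant and 4.52 of the 10 in wild type.

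Exon bins were tested relative to their gene to see whether parts of a transcript were used unequally. Of 104 member exon bins tested 0 were called by edgeR, beside 0.114% of 121498 over the whole table (0.0823% higher and 0.0313% lower in the mutant), and 27 had an unadjusted p under 0.05; DESeq2 called 3, the last bins of FLK and FCA and the FLK exon between introns 1 and 2. The first FCA bin from the 3′ end stood at log2 -0.81 ± 0.17 (SE; adjusted p by edgeR = 0.155), the last FLK bin -0.56 ± 0.13 (0.174) and the FLK exon between introns 1 and 2 0.43 ± 0.10 (0.174). In REF6, the 5 bins nearest the 5′ end lay between 0.62 and 1.15 and the bin at the 3′ end at -0.22, none of them called. Without mutant replicate 3, 11 member bins were called, as were 11253 bins (9.26%) over the whole table, so this count rests on 1 library.

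The next comparison placed the 8 genes beside a list of 25 other genes linked to the pathway or to FLC. They form groups for polyadenylation and elongation, histone modification, RNA binding, and FLC with its activation. A place in the list does not say whether a gene lowers or raises FLC. In the mutant 7 of these 25 genes were higher and 1 was lower, which is 32.0% beside 34.5% of all genes, and the median log2 change was 0.08. By group, 5 of 8 RNA-binding genes, 2 of 6 polyadenylation and elongation genes and 0 of 9 histone modification genes were called, and the difference between groups was not tested. HUA2, which takes part in processing of floral regulator transcripts, had 100, 104 and 68.1 CPM in the mutant and 35.6, 41.9 and 41.3 CPM in wild type. Its log2 change of 1.2 ± 0.15 (SE, edgeR adjusted p = 0.000211) was second in size to FLK among the called genes of the 8 and of this list.

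GRP7, a glycine-rich RNA-binding protein under clock control, had 1190, 1310 and 1250 CPM in the mutant and 1070, 486 and 577 CPM in wild type (log2 0.81 ± 0.27 SE, edgeR adjusted p = 0.0486). Its relative GRP8 stood at log2 0.49 ± 0.16 and PEPPER (PEP), a KH-domain protein related to FLK, 0.26 ± 0.09 (edgeR adjusted p = 0.0309 and 0.0341). KHZ2 was the one gene lower, at -0.35 ± 0.12 (edgeR adjusted p = 0.0357). In wild type GRP7 was high in replicate 1, the library with the highest coverage ratio, and low in the other 2.

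In the polyadenylation group, CSTF77, a cleavage stimulation factor subunit, had 33.8, 32.7 and 31.7 CPM in the mutant and 24.2, 23.9 and 24.1 CPM in wild type (log2 0.44 ± 0.09 SE, edgeR adjusted p = 0.00289). PRP8, a core spliceosome protein, changed by 0.49 ± 0.14 and SUF4, a transcription factor that activates FLC, by 0.26 ± 0.09 (edgeR adjusted p = 0.0214 and 0.0468). HUA2 and CSTF77 stayed called whichever library was left out, while the count of called genes was 2 or 3 without any other library and 9 without wild type replicate 1. Of 41 introns tested in 20 of these genes, 10 were called higher and 0 lower, 24.4% beside 27.9% of all introns, spread over 9 genes.

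FLC, the repressor on which the pathway acts, had 1.86, 1.70 and 2.24 CPM in the mutant and 1.63, 0.495 and 0.214 CPM in wild type. The mutant libraries were all above the wild type libraries, but wild type replicate 1 was close to them. The log2 change of 1.28 ± 0.55 (SE) was not called (edgeR adjusted p = 0.103); without wild type replicate 1 it was 2.34 (edgeR adjusted p = 0.00108), and DESeq2 called it (1.30, adjusted p = 0.0354).

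**Figure D5:**
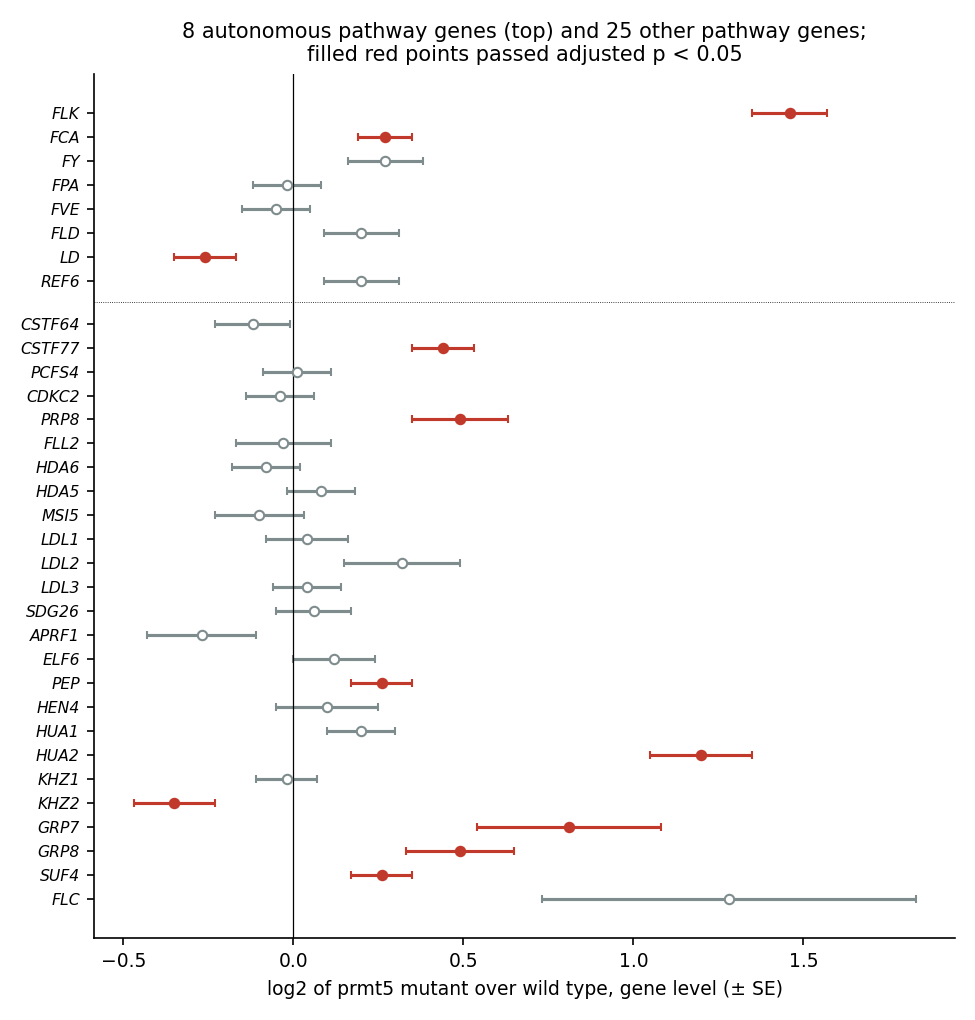
Log2 change in gene level, prmt5 mutant over wild type, with standard errors, for the 8 autonomous pathway genes above the dotted line. The 25 other genes linked to the pathway or to FLC lie below it. Filled red points passed the threshold of 0.05 on the edgeR adjusted p; FLK at 1.46 and HUA2 at 1.2 lie furthest to the right among them, and the open point of FLC at 1.28 has the widest error.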

How the data were processed

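Polyadenylated RNA from 3 µg of total RNA was copied with random primers and amplified for 12 PCR cycles, per the labels' protocols. Alignment named STAR and the TAIR10 build, per the submitters' processing notes; the sources used here name neither the counting program nor the annotation. The deposited values are counts, whole and not normalized, in tables of genes, bins of exons and introns, and junctions, per the file headers. Depth limits introns with few reads most.

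Genes were tested with edgeR 4.0.16 in R 4.3.3 (quasi-likelihood, robust, TMM, default filter). Bins entered the same test with the logarithm of the gene count plus 1 as offset, where at least 3 libraries had 10 reads and the gene averaged 20 counts. Junctions were tested within clusters by diffSpliceDGE and, chosen after seeing the data, against library size. Fits ran on whole tables, and a Benjamini-Hochberg adjusted p under 0.05 was a call. Standard errors come from the log2 change and its F value. For single values the exact permutation test was used, two-sided. The code was tested on simulated data. Alternatives were DESeq2 1.42.0, no filter, read minimums of 5 and 20, other denominators and clusters, the coverage ratio as covariate, a replicate block, and leaving out each library; the neighbouring exon bins as denominator were added after seeing the data. Introns were numbered, and sequences read, on RefSeq TAIR10.1, where 98.6% of 112710 intron bins had GT and AG ends.

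The members, lists and tests were chosen with earlier results of these data known. The rule named the 8 members, each called intron or else the one with the smallest p, FLC, and called genes of the pathway list. Other introns and junctions were chosen after their values were seen. Replicate numbers did not pair the libraries.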

Additional observations from a re-analysis of the deposited data

How the results depend on the processing

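FLK gene level and FLK intron 1 kept their direction and their call under every alternative run. Of the 8 genes 3 were called, beside 34.5% of all genes tested. The count was 1 with the coverage covariate, where 18.9% of all genes were called. It was between 1 and 3 when 1 library was left out, where between 23.2% and 36.5% of all genes were called. Of the 20 tested introns 4 were called, beside 27.9% of all introns. The count was 2 with DESeq2 (23.8% of all introns) and 2 with the coverage covariate (16.5%). It was between 1 and 3 with 1 library left out (21.5% to 25.7%). With a minimum of 20 reads, 6 of 14 tested member introns were called, beside 37.5% of all introns, and the added calls were FLK intron 2 and the 477-base FY intron. For exon bins the count of 0 became 3 with DESeq2, 15 with library size as the reference, which also holds the change of the whole gene, and between 0 and 11 with 1 library left out. Apart from the setting without mutant replicate 3, given above, these exon bin counts were not set beside the share of all bins called. The member junctions called stayed at 0 and the genes with separate summed intron reads at 5 to 6 under the alternatives run. The FPA bin of 699 bases, not called at 0.06, was called at -0.59 with library size as the reference; the cause was not tested. Among the 25 other listed genes, 8 were called, against 5 with the coverage covariate and 2 to 9 with 1 library left out. Same-numbered libraries of the 2 groups had correlated deviations of -0.13, -0.04 and 0.00, so the numbers did not pair them; with a replicate block 2 of the 8 genes, 4 introns, 0 exon bins and 0 junctions were called. The block ended the calls of LD (adjusted p by edgeR = 0.0594), the FY first intron (0.0526) and the second FCA junction from the 3′ end (0.057), and the 477-base FY intron was called (1.04, edgeR adjusted p = 0.0289). Of 625 values of single genes, introns and junctions or added counts under an alternative, 515 kept their side of the threshold or moved little, 35 of them with the sign turned and not called in either setting; 88 lost the call, 12 gained it, 9 counts or sums moved, and 1 turned its sign with a call. Depth limits the 70 introns with too few reads to test.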
